A study of Homo sapiens with 6 samples.

Results

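The genes described here kept 1 direction of response to hepatocyte growth factor (HGF) at 2, 8 and 24 hours in DU145 cells. DU145 is an established human prostate cancer line that carries c-MET, the receptor of HGF, and no genetic change separated the groups. The cells were kept in medium with charcoal-treated serum and received HGF at 25 ng/ml (3 arrays, 1 at each time) or vehicle alone (3 arrays, 1 at each time). All 6 arrays of the series were used, and each HGF array was set against the vehicle array of its own time, so that the 3 comparisons share no array. A gene's value is its scaled signal, the linear intensity after each Affymetrix U133plus2.0 array was brought to a mean of 150 and values under 30 were raised to 30, and the ratio of HGF over vehicle is given on the log2 scale. A gene with several probe sets has the mean of their log2 values, and probe sets at the floor on all arrays, which 4010 of 10002 tested genes have, pull that mean towards 0. For genes named below that have one, the ratios over the other probe sets follow in square brackets. A gene was a member when its log2 ratio had the same sign at all times, and members were ranked by the smallest of their 3 sizes. Of 10002 genes above the floor of 30 in at least 3 arrays, 2602 were members, 1202 higher (12%) and 1400 lower (14%). The other tested genes changed sign or had a ratio of 0 at some time. The shares of 12% and 14% are the background for each count of a gene list below. With 1 array per condition no time point has a replicate, and the 3 vehicle arrays, which also differ in time in culture, give the only spread without HGF.

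HGF binds c-MET, a receptor tyrosine kinase that signals through the adaptors GRB2 and GAB1 to the RAS and MAPK cascade and to PI3 kinase. MAPK signalling first switches on immediate early genes, whose promoters often hold a binding site of the serum response factor, and then genes that dampen the signal, such as MAPK phosphatases and Sprouty proteins. In epithelial cancer cells HGF is known for scattering, migration and invasion.

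Serum response factor and CREB, a factor activated by several kinases, bind the CArG box and the cyclic AMP response element (CRE). The promoters below belong to genes that were higher at all times and are shown because they held a match to either. Sequences are those of RefSeq on GRCh38.p14, 250 bases before to 50 after a gene's start, and 49 of the 62 genes that were higher by a log2 ratio of at least 0.5 at every time had one. EGR1, an immediate early zinc finger factor with the fourth highest rank, held 2 CArG boxes in the 250 bases before its start (chr5:138465229-138465478, plus strand), given in capitals.
EGR1: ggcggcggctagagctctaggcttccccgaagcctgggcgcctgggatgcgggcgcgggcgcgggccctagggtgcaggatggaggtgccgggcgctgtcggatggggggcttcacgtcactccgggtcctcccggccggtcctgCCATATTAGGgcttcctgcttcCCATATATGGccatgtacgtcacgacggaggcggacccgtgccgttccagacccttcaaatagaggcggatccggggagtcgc
PPIF, cyclophilin D of the mitochondrial matrix (chr10:79347427-79347456, plus strand), and FHL2, a LIM domain coactivator (chr2:105438595-105438624, minus strand), held 1 CArG box each, again in capitals.
PPIF: cctgggcaagCCAATAAAGGctgcggcgcg
FHL2: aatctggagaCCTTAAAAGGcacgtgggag
Thus 3 of 49 promoters held a CArG box (6.12%), against 1.29% of all 27305 promoters searched and 1.01% of the 8320 promoters of tested genes. The boxes of EGR1 lay 105 to 96 and 83 to 74 bases before the start, and that of PPIF 32 to 23. From 250 bases before to 50 after the start, no CArG box was found for the early genes FOS, JUN, JUNB, IER2, IER5, CSRNP1 and ZFP36. Sites further from the start were not searched, so these genes may hold a CArG box there. The CRE, TGACGTCA, was found in VPS37B, an ESCRT-I subunit (chr12:122896309-122896338 and chr12:122896170-122896199, minus strand), LRRC8A, a volume-regulated anion channel subunit (chr9:128882094-128882123, plus strand), the ephrin receptor EPHA2 (chr1:16156102-16156131, minus strand) and IRF2BPL (chr14:77028734-77028763, minus strand), with the CRE in capitals.
VPS37B, upstream site: ccgagccgcagTGACGTCAttaatgcgctc
VPS37B, downstream site: ccgcgcggtgaTGACGTCAcgacccagggc
LRRC8A: gcgcccggcggTGACGTCActtccggggcg
EPHA2: gcgggcgttggTGACGTCAcgcagggcatg
IRF2BPL: gagcatggcggTGACGTCAgcgctccgccc
These were 4 of 49 promoters (8.16%), against 1.98% of all and 3.44% of tested genes. The other motifs gave shares of 4.08% for AP-1 (TGAGTCA or TGACTCA; 4.92% of all promoters and 2.78% of those of tested genes), 6.12% for the EGR site (5.70% and 9.92%), 12.2% for the NF-kB site (7.41% and 8.94%) and 14.3% for the TATA box (TATAAA; 12.0% and 4.94%). Both strands were searched, and the promoters of CDKN1A, DUSP6 and SPRY4, which rank close to EGR1, matched none of these motifs. A match is a stretch of letters and no measured site, and no difference in share was tested.

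The members that were higher with HGF reached larger sizes than those that were lower. At a smallest size of at least 0.5 on the log2 scale, 62 genes were higher (0.62% of tested genes) and 4 were lower (0.04%). At 0.25 the counts were 173 and 82, at 0.75 they were 28 and 1, and 9 genes were at least 2-fold higher at every time while 0 were as much lower. The last genes inside the limit of 0.5 were ANXA2P1 and CDC42EP2, both at 0.50, and the first outside it were PRSS22 and SDC4, both at 0.49. On the lower side ATAD5 (-0.55) and ZNF84 (-0.51) were the last inside and CAVIN2 (-0.50, just short of the limit) and MTERF2 (-0.48) the first outside. These counts describe the ranking and were not tested, since the ratios chose the genes.

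**Figure D1:**
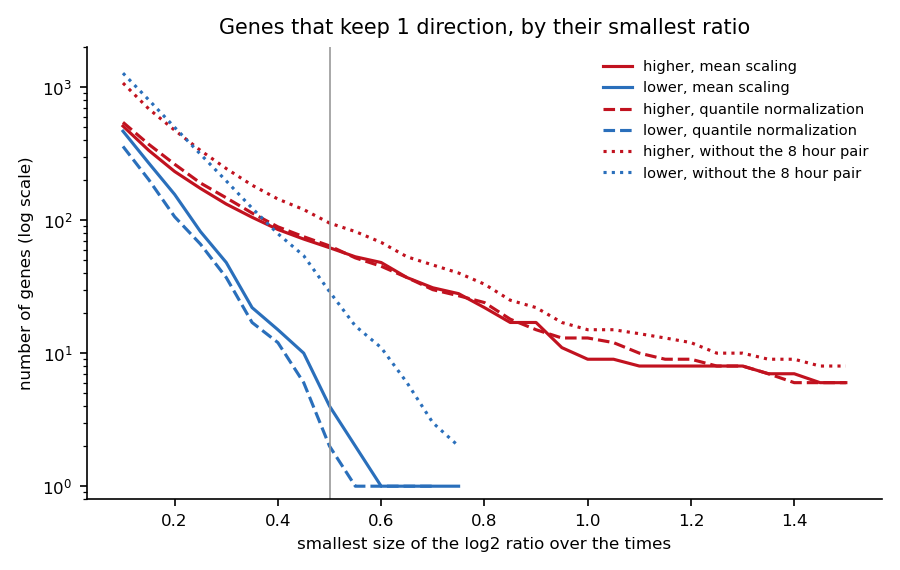
Number of genes (log axis) whose HGF over vehicle ratio kept 1 direction, by the smallest size of the log2 ratio over the times used, with mean scaling, with quantile normalization and without the 8 hour pair. At a size of 0.5 (vertical line) 62 genes were higher and 4 lower with mean scaling, 64 and 2 with quantile normalization, and 95 and 29 without the 8 hour pair.

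Of the 62 higher genes, 59 had all HGF arrays above all vehicle arrays, where 515 of 10002 tested genes had the same order. The exceptions were SGK1, STX1A and CTSLP8. In 57 of the 62 the smallest HGF ratio was larger than the range of the 3 vehicle arrays. Both counts are favoured by the ratios that chose the 62 genes, and neither was tested. In 14 genes the 2 hour ratio was the largest, in 31 that of 8 hours and in 17 that of 24 hours, and the median log2 ratio was 0.91, 1.04 and 0.83. The ratios of all tested genes were spread more widely at 8 hours (SD 0.60) than at 2 hours (0.24) or 24 hours (0.33). Of 21 genes with 2 or more probe sets above the floor, all of these probe sets kept the direction in 19, and JUN and SLC20A1 were the exceptions. In 4 of the 62, HBEGF, HES1, STK40 and ATG16L1, at least 1 further probe set was at the floor on all arrays.

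A shared HGF effect was fitted with limma over all tested genes, with time as a block, so that the spread of the ratio between times serves as the error. It called 0 of 10002 genes at a Benjamini-Hochberg adjusted p of 0.05 (0%), and 255 genes higher (2.55%) and 148 lower (1.48%) at an unadjusted p under 0.05. The smallest adjusted p was 0.165, shared by DUSP6, EGR1, SOX9, CDKN1A, G0S2 and SPRY4. With 3 pairs an exact sign-flip test of a single gene cannot go below 0.25, and one over 3 arrays against 3 cannot go below 0.1. Because the ranking used the same ratios, these p-values are not independent of it. Calls appeared under 3 other settings: CDKN1A, DUSP6, EGR1, G0S2 and SOX9 without the floor, SOX9, EGR1 and CDKN1A with the brightest probe set of each gene, and DUSP6, SOX9 and CDKN1A without the block.

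SOX9, a transcription factor of embryonic prostate epithelium, had the highest rank. Its scaled signal was 66.0, 70.3 and 61.1 in the vehicle arrays of 2, 8 and 24 hours and 244, 386 and 353 in the HGF arrays. All HGF arrays were well above all vehicle arrays, and the log2 ratios were 1.88, 2.46 and 2.53. The ratio at its smallest was 3.69-fold, and the limma mean was 2.29 with a standard error of 0.18 (adjusted p = 0.165, limma). Both probe sets of the gene, which lies on chromosome 17, gave ratios of at least 1.59 at each time.

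CDKN1A, which encodes the cell cycle inhibitor p21, followed. It read 184, 208 and 253 with vehicle and 812, 1178 and 907 with HGF, and the groups did not overlap. The log2 ratios of 2.14, 2.50 and 1.84 gave a limma mean of 2.16 (standard error 0.17, adjusted p = 0.165 in limma). Only 1 probe set represented this gene. Of 14 tested CDK inhibitors, D-type cyclins and growth arrest genes, 4 were higher at all times and 2 lower. CCND1, cyclin D1, was higher by small ratios of 0.33, 0.28 and 0.17 in the mean of its 2 probe sets. Neither probe set alone was higher at all times, and the HGF and vehicle arrays overlapped. The p53 target SESN2 was higher by 0.42, 0.65 and 0.28. GADD45B, a stress-induced growth arrest gene, was the reverse, with 171, 152 and 156 in vehicle and 125, 114 and 98.7 in HGF arrays (log2 ratios -0.46, -0.41 and -0.66 [-0.61, -0.55 and -0.88]). The direction of the proliferation genes differed between times. Of 31 S phase and mitosis genes only RRM2 was higher at all times, and KIF20A, BUB1 and TPX2 were lower.

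**Figure D2:**
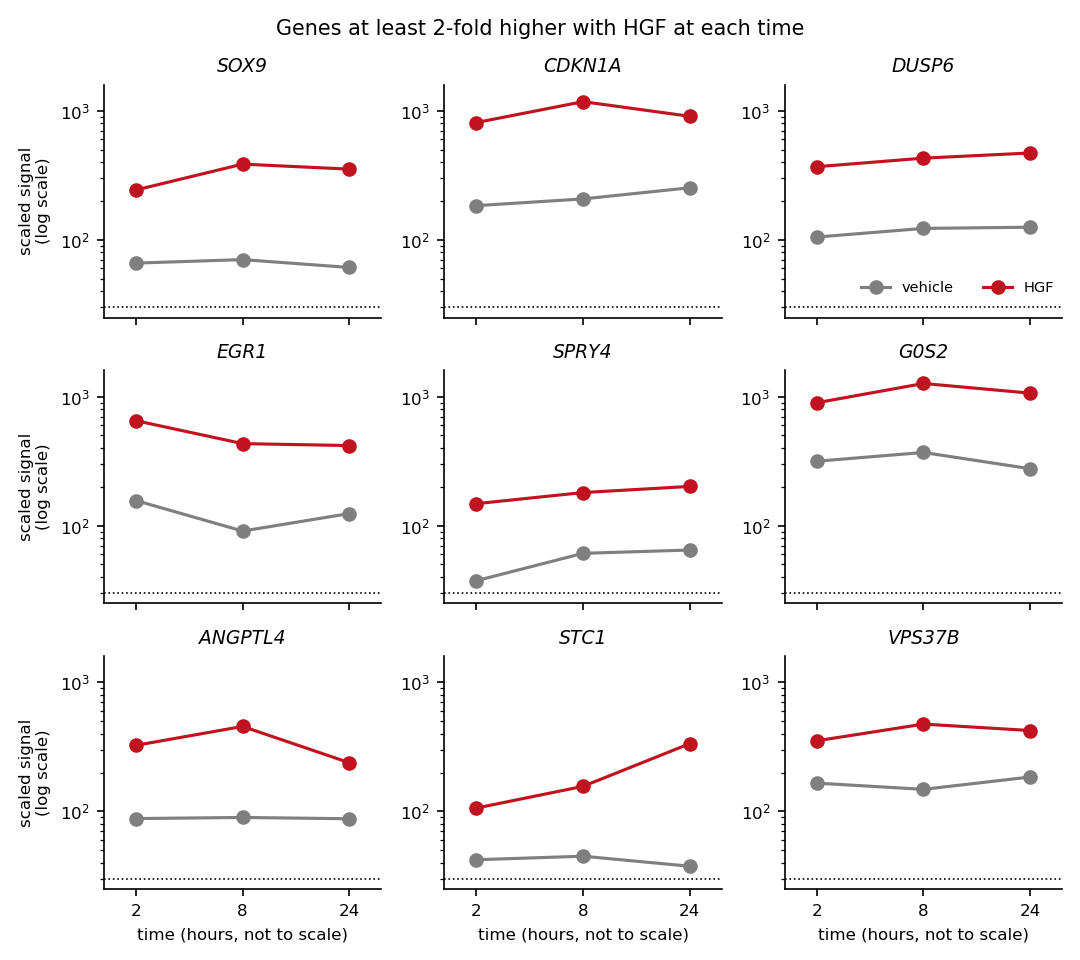
Scaled signal (log axis) of the 9 genes at least 2-fold higher with HGF at each time, 1 point per array, vehicle in grey and HGF in red, with the floor of 30 dotted. In each gene the 3 HGF arrays lie above the 3 vehicle arrays, as for SOX9 with 244 to 386 against 61.1 to 70.3.

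Most tested feedback genes of receptor and MAPK signalling were higher at all times. Of 9 tested MAPK phosphatases 6 were higher and 0 lower, and of 12 Sprouty, Spred and other receptor feedback genes 7 were higher and 0 lower. The medians of their mean log2 ratios were 0.43 and 0.52, beside -0.03 over all tested genes. DUSP6, the cytoplasmic phosphatase of ERK, read 105, 123 and 125 with vehicle and 369, 430 and 471 with HGF. Its ratios of 1.81, 1.81 and 1.91 were nearly the same at each time, and its limma mean was 1.84 (standard error 0.13, adjusted p = 0.165 in limma). The 3 probe sets of DUSP6 ranged from 1.42 to 2.31. DUSP5, the nuclear ERK phosphatase, had ratios of 1.20, 1.75 and 0.66, and DUSP4, also a nuclear MAPK phosphatase, had 0.86, 0.52 and 0.98.

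SPRY4, a Sprouty inhibitor of the RAS and MAPK cascade, read 37.4, 61.0 and 64.7 in the vehicle arrays and 148, 180 and 201 in the HGF arrays. Its vehicle signal at 2 hours was close to the floor, and the groups did not overlap. The log2 ratios were 1.98, 1.57 and 1.64 (limma mean 1.73, standard error 0.15, adjusted p = 0.165). IER3, an early response gene that acts on ERK signalling and survival, had ratios of 1.44, 1.49 and 0.91, PHLDA1 had 1.20, 0.45 and 0.81, and the pseudokinase TRIB1 had 0.67, 0.59 and 0.36 [2.00, 1.78 and 1.07 in its 1 probe set above the floor]. For these 4 genes the smallest ratio was at 8 or 24 hours.

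The list named for immediate early transcription factors had the highest share of higher members among the lists with at least 5 tested genes. It also holds ZFP36 and IER5, which are described below by other roles. Of 18 tested, 14 were higher at all times (77.8%), 8 of them by 0.5 or more at each time, and 0 were lower. The median of the mean ratio was 0.79, and the median ratios by time, 1.20, 0.57 and 0.46, became smaller from 2 to 24 hours. EGR1 read 156, 90.7 and 124 with vehicle and 650, 432 and 418 with HGF. Its log2 ratios were 2.06, at least 2.25 and at least 1.75, bounds because 1 of its 3 probe sets was at the floor in the vehicle arrays of 8 and 24 hours. The HGF signal of EGR1 was highest at 2 hours, yet the later ratios stayed above 3-fold. Its smallest ratio was 3.37-fold.

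CSRNP1, a nuclear protein of the early serum response, read 69.3, 56.6 and 71.9 with vehicle and 307, 247 and 138 with HGF, with ratios of 2.15, 2.13 and 0.94. Thus its HGF signal at 24 hours was under that at 2 and 8 hours while still above every vehicle array. The smallest ratio was at 24 hours also for JUNB, a subunit of AP-1, with ratios of 1.38, 1.46 and 0.76, and for IER2, with 1.15, 1.48 and 0.77. IER5, an activator of heat shock factor, was nearly even with 1.07, 1.33 and 0.98. FOS, the founding AP-1 subunit, was at the floor of 30 in all vehicle arrays and read 86.5, 44.0 and 45.0 with HGF, which gives bounds of at least 2.88-fold at 2 hours and at least 1.47-fold at 8 hours. JUN had ratios of 0.74, 0.69 and 0.80, of which those at 2 and 24 hours are bounds. ZFP36, a protein that destabilises AU-rich messengers, had 1.25, 1.74 and 0.62.

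Among the AP-1 and ETS factors of the later response, 7 of 13 tested were higher at all times and only ELF3 was lower (-0.21, -0.46 and -0.54). FOSL1, the AP-1 subunit FRA-1, read 299, 347 and 484 with vehicle and 936, 1385 and 907 with HGF. Its ratios were 1.65, 2.00 and 0.91, and it was the only gene of this list at 0.5 or more at each time. ELK1 (0.16, 0.52 and 0.39 [0.25, 0.79 and 0.59]) and MAFG (0.26, 0.35 and 0.29) were higher by less.

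**Figure D3:**
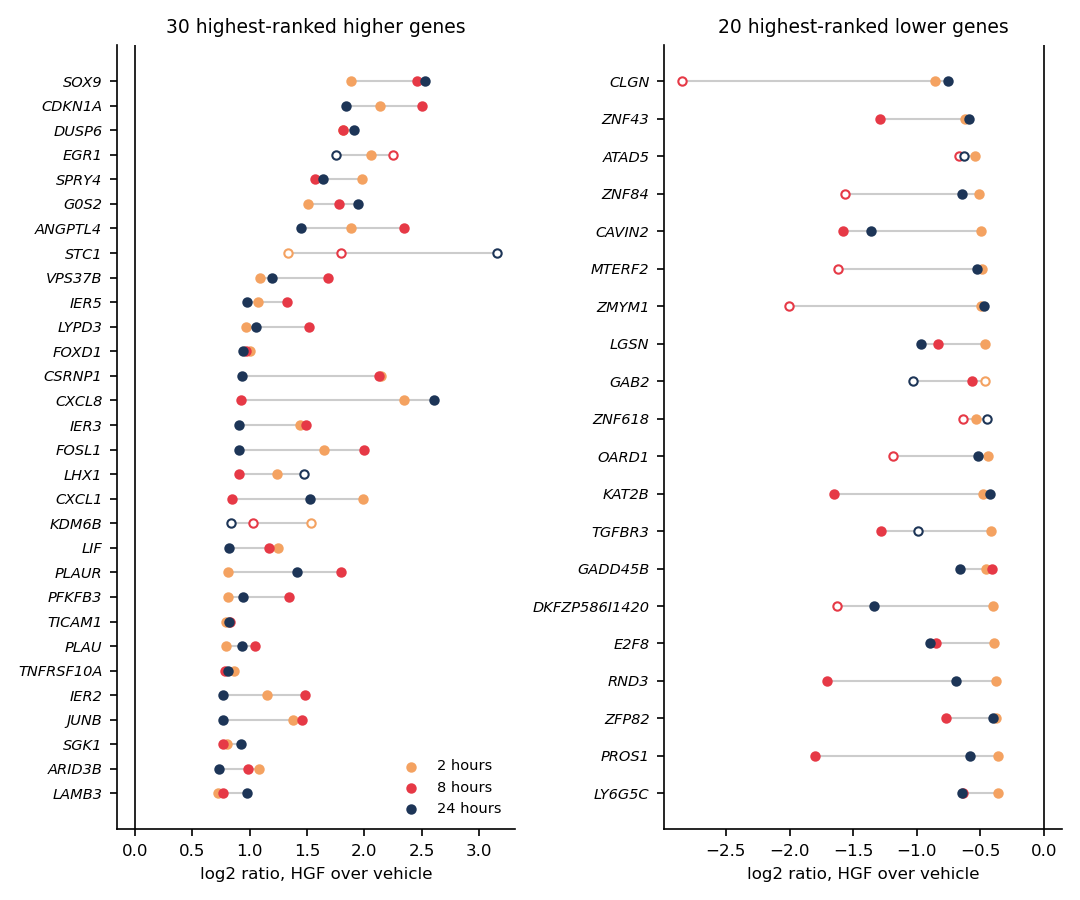
Log2 ratio of HGF over vehicle at 2, 8 and 24 hours for the 30 highest-ranked higher genes (left) and the 20 highest-ranked lower genes (right), with a grey line from the smallest to the largest ratio of a gene. Open circles are bounds, where a probe set was at the floor on the low side. SOX9 lies at 1.88 or above at each time, while CLGN lies at -0.86, -2.84 (a bound) and -0.76.

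Secreted factors and their receptors followed. Of 13 tested chemokines and cytokines 7 were higher at all times and 0 lower, with a median of the mean ratio of 0.31. CXCL8, interleukin-8, read 159, 131 and 178 with vehicle and 809, 248 and 1083 with HGF. Its ratios of 2.34, 0.92 and 2.61 were smallest at 8 hours, and 1 of its 2 probe sets read only 0.58 there. CXCL1, a ligand of the same receptor, was also smallest at 8 hours, with 1.99, 0.84 and 1.52. LIF, a cytokine of the interleukin-6 family, had 1.25, 1.16 and 0.82, and IL11, of the same family, had 1.61, 1.85 and 0.39, of which the ratio at 8 hours is a bound.

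ANGPTL4, a secreted inhibitor of lipoprotein lipase, read 88.0, 89.8 and 87.7 in the vehicle arrays and 325, 456 and 239 in the HGF arrays. The vehicle arrays were almost equal, with a range of 0.03 on the log2 scale, and the ratios were 1.89, 2.34 and 1.44 (limma mean 1.89, standard error 0.21, adjusted p = 0.438). STC1, the secreted glycoprotein stanniocalcin-1, read 42.2, 45.0 and 37.6 with vehicle and 106, 156 and 335 with HGF. Its ratios, all bounds, were at least 1.33, 1.80 and 3.15 and so largest at 24 hours. PFKFB3, an activator of glycolysis, had 0.81, 1.34 and 0.94. These 3 genes belong to the list of hypoxia and glycolysis genes, of which 9 of 22 tested were higher and 1 lower (GAPDH, by ratios of -0.02, -0.02 and -0.46). The median ratios of that list at the 3 times were 0.05, 0.25 and 0.22.

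G0S2, an inhibitor of the lipase that opens lipid droplets, had the sixth highest rank. It read 316, 369 and 276 with vehicle and 896, 1264 and 1064 with HGF, with no overlap of the groups. The ratios were 1.51, 1.78 and 1.95 (limma mean 1.74, standard error 0.15, adjusted p = 0.165). Of the 10 tested genes of lipid droplets and lipase control 3 were higher at all times and 2 lower. Apart from G0S2 these were PLIN3, a droplet coat protein (0.28, 1.73 and 0.49), and PPARD (0.12, 0.56 and 0.40 [0.16, 0.75 and 0.53]) on the higher side, and PPARG and PPARA on the lower side.

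The urokinase system activates plasmin at the cell surface. Of 15 tested genes of this system and of matrix proteolysis 7 were higher at all times and 0 lower, with a median of the mean ratio of 0.49. PLAU, urokinase itself, read 850, 992 and 1237 with vehicle and 1476, 2049 and 2356 with HGF, and PLAUR, its receptor, read 301, 360 and 402 with vehicle and 528, 1253 and 1074 with HGF. In both genes the lowest HGF array, that of 2 hours, was still above every vehicle array. The ratios were 0.80, 1.05 and 0.93 for PLAU and 0.81, 1.80 and 1.42 for PLAUR. CTSL, the protease cathepsin L, had 0.47, 0.79 and 0.97, while TIMP1, a metalloprotease inhibitor, was late, with 0.26, 2.36 and 1.86. LYPD3, a relative of the urokinase receptor, had 0.97, 1.52 and 1.05.

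Adhesion genes were mixed. LAMB3, the beta chain of laminin-332, had ratios of 0.72, 0.77 and 0.98 and was the only one of 12 tested integrins and laminins at 0.5 or more at each time. ITGA3 (0.08, 0.87 and 0.37) and ITGA5 (0.01, 1.36 and 1.33) were higher at all times but hardly so at 2 hours, and ITGAV was lower (-0.03, -1.92 and -0.01). ITGA2 had -0.06, 0.24 and 2.32 and ITGA6 0.19, -0.75 and 1.84, so neither kept 1 sign in the mean of its probe sets. The brighter ITGA2 probe set was higher at all times (0.39, 0.64 and 2.50), the other only at 24 hours (-0.52, -0.17 and 2.13). CAVIN2, a caveolar coat protein, read 221, 239 and 163 with vehicle and 157, 80.1 and 63.6 with HGF, and its ratios were -0.50, -1.58 and -1.36.

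Other highly ranked genes were regulators of transcription and of inflammation. FOXD1, a forkhead factor, had almost equal ratios of 1.00, 0.97 and 0.95, and LHX1, a LIM homeobox factor of kidney development, had 1.24, 0.91 and at least 1.47 with vehicle signals of 30 to 44.5. KDM6B, a histone H3 lysine 27 demethylase, had bounds of at least 1.54, 1.03 and 0.84, and all of its 5 probe sets were higher. VPS37B had 1.09, 1.68 and 1.20. TNFAIP3, an inhibitor of NF-kB signalling, had 0.86, 0.89 and 0.64, and BCL2A1, an inhibitor of apoptosis, had at least 0.72, at least 1.77 and 3.51. These were the only genes at 0.5 or more at each time among 16 tested genes of NF-kB and its feedback, of which 6 were higher and 1 lower. TNFRSF10A, a death receptor of TRAIL, had 0.86, 0.79 and 0.81. CD274, the checkpoint ligand PD-L1, had bounds of at least 1.35, 0.64 and 1.14. Further down the ranking, PPIF, whose CArG box is shown above, had ratios of 0.65, 0.64 and 0.65 in the mean of its probe sets. The probe sets themselves were uneven over time, with 0.56, 0.93 and 0.46 against 0.74, 0.35 and 0.84. FHL2 had 0.59, 0.92 and 0.83. EPHA2, with a CRE in its promoter, read 496, 603 and 624 with vehicle and 1226, 1245 and 983 with HGF (ratios 1.31, 1.04 and 0.66). RGS2, which limits G protein signals, was largest at 24 hours, with 0.88, 0.68 and 1.92, and SFN, the epithelial 14-3-3 protein sigma, at 8 hours, with 0.60, 1.30 and 0.52. At 24 hours the probe sets of SFN disagreed in size, with 1.00, 0.04 and 0.51. SERTAD1, a CDK4-binding protein, had 1.36, 1.89 and 0.62, but its vehicle arrays ranged over 0.86 on the log2 scale, more than its smallest ratio. CTSLP8 and ANXA2P1 are named as pseudogenes, and their probe sets may read the near-identical parent genes.

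The receptor and its adaptors did not share a direction. Of 19 tested genes of HGF signalling 4 were higher and 4 lower at all times, and 0 reached 0.5 at each time. MET, which encodes c-MET, read 228, 266 and 160 with vehicle and 194, 84.2 and 153 with HGF. The groups overlapped, and the ratios were -0.23, -1.66 and -0.07, of which the last 2 are bounds. The 4 probe sets of MET disagreed at 24 hours, where they ranged from -0.59 to 0.44. Among EGF receptor ligands, HBEGF had even ratios of 0.75, 0.67 and 0.66 [1.5, 1.33 and 1.31 in the 2 of its 4 probe sets above the floor], and TGFA had 0.13, 0.28 and 0.32 [0.40, 0.84 and 0.97]. The receptors EGFR (-0.10, -0.54 and -0.09 [-0.15, -0.81 and -0.14]) and ERBB3 were lower at all times.

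In a list of stem-like surface markers and SOX9, 2 of 6 tested genes were higher at all times and 2 lower. SOX9, CD44 and CD24 of this list, and ITGA2 and ITGA6 above, are markers that the study chose on these samples, so that their direction is no independent evidence. Beside SOX9, CD44 was higher at all times (0.07, 0.35 and 0.53 [0.13, 0.65 and 0.98 in the 7 of its 13 probe sets above the floor]), though 3 of these 7 probe sets were lower at 2 hours, and ABCG2 (-0.04, -0.23 and -0.22) and ALCAM (-0.13, -1.01 and -0.07 [-0.20, -1.52 and -0.10]) were lower. CD24 was near 0 at 2 hours (0.02) and lower later (-1.22 and -0.76). In the Notch pathway 5 of 12 tested genes were higher at all times and 0 lower. Apart from HES1, their smallest ratios were 0.01 (HES4), 0.01 [0.04] (DLL3), 0.04 (NRARP) and 0.10 (MAML1). HES1, a repressor induced by Notch, read 42.2, 40.2 and 40.1 with vehicle and 64.5, 66.0 and 83.1 with HGF, and was the only one of these genes at 0.5 or more at each time. The ratios of HES1 were 0.61, 0.72 and 1.05 [0.92, 1.07 and 1.58]. The study also took HES1 from the expression profile of these samples, so its direction is no independent evidence either. NOTCH1 did not keep a sign, and the ligand JAG1 was above the floor in too few arrays to be tested. The ligand DLL4 was at the floor on all arrays.

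**Figure D4:**
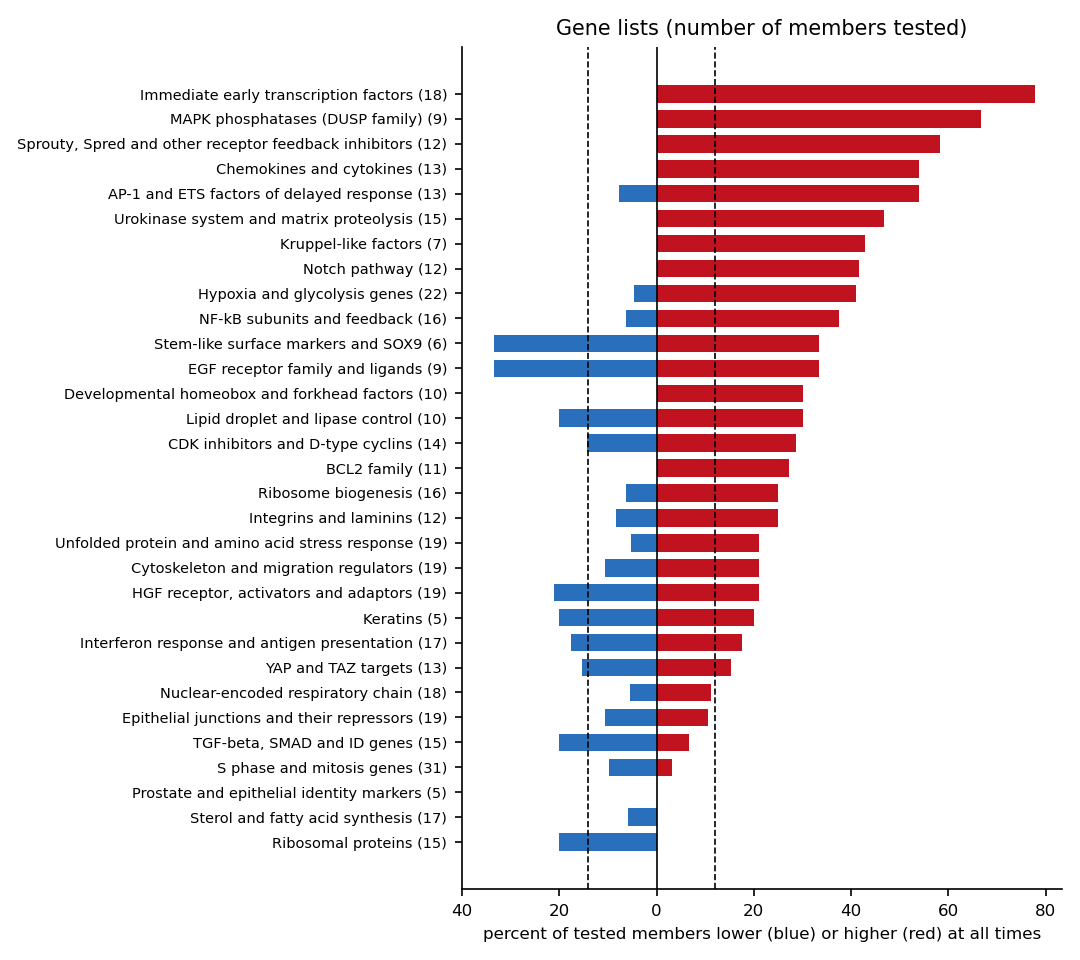
Percent of the tested members of each gene list that were higher (red, right) or lower (blue, left) with HGF at all times, with the number tested in brackets and dashed lines at the percents over all tested genes, 12.0 and 14.0. Lists with at least 5 tested members are drawn, and immediate early factors (77.8% higher, 0 lower) stand at the top.

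Other lists held few genes at 0.5 or more at each time. Their counts stand beside 12% of all tested genes higher at all times and 14% lower. Several lie near those shares, such as YAP and TAZ targets (15.4% and 15.4%) and epithelial junction genes (10.5% and 10.5%). Of 7 tested Kruppel-like factors 3 were higher at all times and 0 lower, led by KLF2 (0.32, 0.69 and 0.67 [0.63, 1.38 and 1.34]), and of 11 genes of the BCL2 family 3 were higher and 0 lower, led by BAK1, a pore-forming effector of apoptosis (0.34, 1.42 and 0.53). Developmental homeobox and forkhead factors had 3 higher and 0 lower of 10, of which LHX1 and FOXD1 are given above. Of 19 genes of the unfolded protein and amino acid stress response 4 were higher and 1 lower. Among them CEBPB, a bZIP factor, read 1772, 1854 and 2048 with vehicle and 2720, 3373 and 3436 with HGF (ratios 0.62, 0.86 and 0.75), while CEBPD was lower (-0.09, -0.10 and -0.82 [-0.18, -0.20 and -1.64]).

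Ribosome biogenesis had 4 higher and 1 lower of 16, with RRP9, a small nucleolar RNP protein, at 0.65, 1.21 and 0.32. Cytoskeleton and migration regulators had 4 higher and 2 lower of 19, among them ZYX, the focal adhesion protein zyxin (0.24, 1.52 and 0.28). The EGF receptor family and its ligands had 3 higher and 3 lower of 9, and interferon response and antigen presentation 3 and 3 of 17. In the latter ISG20, an exonuclease (0.25, 1.39 and 1.91), was higher and IFIT1 (-0.16, -0.90 and -0.74) lower. TGF-beta, SMAD and ID genes had 1 higher and 3 lower of 15, YAP and TAZ targets 2 and 2 of 13, epithelial junction genes 2 and 2 of 19, keratins 1 and 1 of 5, and the respiratory chain 2 and 1 of 18.

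The lists with no higher member were ribosomal proteins (3 lower of 15), sterol and fatty acid synthesis (1 lower of 17) and prostate and epithelial identity (0 lower of 5). Over all tested genes 12% were higher and 14% lower. For sterol synthesis the median ratio was 0.06, 0.16 and -0.41 at the 3 times. The counts of lists shift when the arrays are normalized by quantiles, to 8 lower in place of 3 among S phase and mitosis genes and to 3 higher in place of 6 among genes of NF-kB. The lists and their order were chosen with results of these data known and were not tested.

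On the lower side CLGN, a chaperone of the endoplasmic reticulum, had the highest rank. It read 86.0, 215 and 80.3 with vehicle and 47.4, 30 (the floor) and 47.6 with HGF. The groups did not overlap, but the vehicle array of 8 hours stood far above the other two, and the range of the vehicle arrays (1.42) exceeded the smallest ratio. The log2 ratios were -0.86, -2.84 at 8 hours, a bound, and -0.76. ZNF43, a zinc finger gene, read 59.8, 73.2 and 49.4 with vehicle and 38.9, 30 and 32.8 with HGF (ratios -0.62, -1.29 and -0.59). ATAD5, which unloads the replication clamp PCNA, read 57.5, 47.5 and 46.3 with vehicle and 39.4, 30 and 30 in the HGF arrays. ZNF84, also a zinc finger gene, read 72.1, 89.9 and 63.7 with vehicle and 50.7, 30.4 and 40.7 with HGF (ratios -0.51, a bound of -1.57, and -0.65). The HGF signals of these genes lay close to the floor, and the ratios of ATAD5 at 8 and 24 hours are bounds.

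All of the 4 lower genes at a size of 0.5 or more had their largest ratio at 8 hours, as had 52 of the 82 at 0.25 or more. Of these 82 genes 58 had groups that did not overlap, where 461 of 10002 tested genes had all HGF arrays below all vehicle arrays. In 32 of the 82 the smallest ratio exceeded the vehicle range. The ratios that chose these genes favour both counts, and neither was tested. The vehicle array of 8 hours also had the lowest median signal of the poly-A spikes, which are added before labelling, with 60.1 against 98.8 to 231 in the other arrays. The HGF array of 8 hours read 109. The pair of 2 hours differed more, with 231 in the vehicle and 98.8 in the HGF array. The part of the spikes in the ratios was not tested. Without the 8 hour pair 29 genes were lower by at least 0.5 at both other times. KAT2B, a histone acetyltransferase (-0.48, -1.65 and -0.42), PROS1, protein S (-0.36, -1.80 and -0.58), TGFBR3, betaglycan (-0.41, -1.28 and a bound of -0.99), and ZMYM1 (-0.50, a bound of -2.01 and -0.47) also had their largest ratio at 8 hours. GAB2, an adaptor of receptor tyrosine kinases, differed, with its largest ratio at 24 hours (-1.02, a bound). E2F8, an atypical E2F repressor, was also lowest then (-0.39, -0.85 and -0.89).

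Zinc finger genes with a ZNF or ZFP symbol, a group chosen after the values were seen, made up 7 of the 82 lower genes at 0.25 or more (8.54%) and 286 of all tested genes (2.86%). Of the 286, 63 were lower at all times (22.0%, beside 14% of all tested genes) and 20 higher (beside 12% of all tested genes). Their median ratios at the 3 times were -0.05, -0.27 and 0, beside -0.03, -0.05 and 0.02 over all tested genes.

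**Figure D5:**
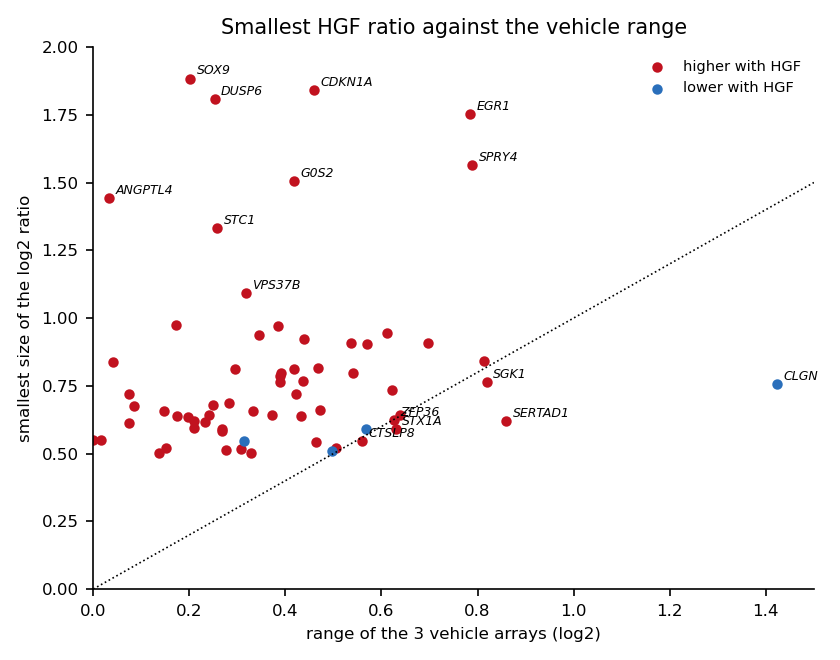
Smallest size of the log2 ratio over the 3 times against the log2 range of the 3 vehicle arrays, 1 point per gene, for the 62 higher (red) and 4 lower (blue) genes at a size of 0.5 or more. The dotted line marks equality. Above it lie 57 of the 62 higher and 3 of the 4 lower genes, and CLGN lies far below it.

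Markers were checked against the labelled line. All 4 epithelial markers were above the floor in every array, with a summed signal of 9835 to 11871 with vehicle and 9274 to 11788 with HGF. Of 5 markers of luminal prostate cells only KLK3 was above it, and of 2 basal markers neither was. Of 14 markers of other cell types only COL1A1 was above the floor, and the summed signal was 176 to 201 with vehicle and 190 to 219 with HGF.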

How the data were processed

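The authors deposited linear intensities, 1 for each of 54675 probe sets and array. MAS5 is named in the submitters' processing notes without a version. The methods describe quantile normalization, a mean of 150 and a floor of 30, which the deposited intensities do not show (means 149.1 to 205.4), so the mean and floor were set here. The number of arrays limits the precision. Probe sets with 1 symbol in the platform annotation (41097) were averaged on the log2 scale to 19775 genes. Probe sets with several symbols (1801) or no entry (11777) named no gene. Groups came from the labels. Genes that exceeded the floor in 3 or more arrays were tested with limma 3.58.1 (lmFit, eBayes, time as a block, Benjamini-Hochberg) in R 4.3.3, with other steps in Python 3.11.15, numpy 2.4.6 and pandas 2.3.3 and plots in matplotlib 3.10.9. The limma step was tested on simulated data in which effects had the same size at each time and all genes the same spread. That test does not cover effects that change with time. Nothing says that arrays of 1 group came from separate cultures, so p-values measure only the spread between these arrays.

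Named genes were the 30 highest-ranked higher and 20 highest-ranked lower genes, up to 4 members of each of 32 lists with the largest smallest ratio, the 10 genes of smallest p and the genes the study names. Other genes at or above the limit of 0.5 or in the lists were named after their values were seen. Members and lists were chosen with earlier results of these data known. Promoters on chromosome 8 were not used here. Alternatives were quantile normalization, centred ratios, a floor of 60, no floor with an offset of 16, the median over probe sets, the brightest probe set, only probe sets above the floor, no _s_at or _x_at probe sets, leaving out each time, the mean vehicle array as reference, probe sets in place of genes, and in limma a fit without the block, one with a variance trend, one over unfiltered genes and an adjusted p of 0.1.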

Additional observations from a re-analysis of the deposited data

Results flagged for a closer look

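Probe sets with no gene name in the annotation were not part of the ranking. Of 11721 such probe sets, 1385 were above the floor in at least 3 arrays, of which 119 were higher and 225 lower with HGF at all times (8.59% and 16.2%, beside 12% and 14% of tested genes). At a log2 size of 0.5 or more the counts were 9 and 7, which is 0.65% and 0.51% beside 0.62% and 0.04% of tested genes, where a gene averages over its probe sets. They are listed as signal in data that no comparison used.

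ITGA6, the integrin alpha 6 chain, had a log2 ratio of -0.75 at 8 hours and 1.84 at 24 hours, so its pairs moved in opposite directions. With 1 pair at each time this difference was not tested.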

How the results depend on the processing

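The ratios have no replicate at any time, and same-time arrays did not deviate together in general: the correlation of their deviations from the group means across genes was 0.35, -0.53 and -0.13 for the pairs of 2, 8 and 24 hours. Between arrays of different times the correlation ranged from -0.62 (vehicle of 24 hours, HGF of 2 hours) to 0.64 (vehicle of 24 hours, HGF of 8 hours). The pairing rests on the time in the labels. Signals near the floor give bounds only.

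Of the 62 genes higher by at least 0.5 (log2), 36 stayed so under every gene-level alternative that gives them a value. Of these 36, 13 (SOX9, CDKN1A and SPRY4 among them) have only _s_at or _x_at probe sets and no value without those, and 23 have a value under all. Of the 4 lower genes 0 stayed. For 137 named genes with 1 sign, 1449 values under the alternatives stayed within the SD of the gene's 3 ratios and 162 moved further. Among these values 118 no longer had a common sign. None took the opposite sign at all times, a strict rule that leaving out a time could not meet. Limma called 5 genes with no floor, 3 with the brightest probe set and 3 with no block, and 0 under the others. Its count at an unadjusted p under 0.05 was 337 to 752 without 1 pair, against 403, and the 752 came without the 8 hour pair.

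Counting genes higher at all times gave 2180 with no floor and 1976 as probe sets, against 1202, and lower genes 3004 with no floor, 2435 as probe sets and 2551 against the mean vehicle array, against 1400. At 0.5 or more, 135 probe sets were higher. The 4 lower genes became 2 with quantile normalization, 0 with a floor of 60, 7 with no floor, 7 with the median over probe sets, 16 with the brightest probe set, 16 with only probe sets above the floor, 9 without _s_at and _x_at probe sets, 16 against the mean vehicle array and 34 as probe sets. With 2 pairs in place of 3, which by construction lets more genes keep a sign, 2009 to 2498 genes were higher, 2172 to 3292 lower, 95 to 200 higher by 0.5 or more and 29 to 84 lower by as much. Other causes of these differences were not tested.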
